A study of Mus musculus with 10 samples.

Results

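Voltage-gated calcium channels open when a nerve or muscle cell is depolarized and let calcium enter, and the alpha-1 subunit is the protein that forms the pore and senses the voltage. The mouse genes Cacna1a, Cacna1b, Cacna1c, Cacna1d, Cacna1e, Cacna1f, Cacna1g, Cacna1h, Cacna1i and Cacna1s encode these 10 subunits, and they are described here on arrays of mouse hemibrain RNA. A member was any probe whose RefSeq accession belongs to 1 of these genes. This rule found 19 probes of 9 genes, out of 41174 probes and 18539 named genes. No probe was matched to Cacna1b, the pore of the N-type channel, which was therefore not analysed here. Only the accession was used, so a probe of Cacna1b under an accession missing from the RefSeq table would not be found.

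The family is divided by current and by pharmacology. L-type channels (Cacna1c, Cacna1d, Cacna1f and Cacna1s) carry long-lasting currents that couple depolarization to contraction, hormone release or transcription. P/Q-, N- and R-type channels (Cacna1a, Cacna1b and Cacna1e) supply much of the calcium that triggers transmitter release at synapses. T-type channels (Cacna1g, Cacna1h and Cacna1i) open near the resting potential and shape burst firing, for example in the thalamus.

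Each of the 10 arrays measured left hemibrain RNA of 1 male C57BL/6J mouse, labeled with Cy5, against another RNA labeled with Cy3. Mice were single-housed from 3 weeks of age on a standard lab diet (SD) or an n-3 PUFA enriched diet (FD) for 20 weeks, until 5 months of age. The sources do not settle which diet each array stands for: the diet entries give FD for every Cy5 sample, the descriptions call every sample a control, and the methods describe FD and SD arrays. The Cy3 RNA is a pooled SD hemibrain sample in the diet and tissue entries and a commercial reference RNA in the labelling protocol and the methods. Accordingly, no diets were compared, each value is given for a single array or as the lowest, median and highest of the arrays, and the Cy3 RNA is called the reference. All arrays carried the dyes the same way round, so dye bias and a difference between hemibrain and reference cannot be told apart. A ratio between tissues also cannot tell apart more cells of a type and more RNA per cell.

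Probes well above background, the flag of the scanner software for a signal clear of its local background, made up 68.2% to 76.9% of all probes in Cy5 on 9 arrays and 49.8% on C10-434. Marker genes of astrocytes and of oligodendrocytes were higher in Cy5 on all arrays for 5 of 5 genes each, those of neurons for 4 of 5 and those of microglia for 3 of 5. The neuron gene that missed had a value on 9 arrays only, the lowest being 1.78 in log2 Cy5/Cy3. Marker genes of proliferation were lower for 5 of 5, with a list median of -6.40 in log2 Cy5/Cy3. By the same rule, at least 2-fold on all arrays, 13.8% of all genes were higher and 15.1% lower. Thus the defining markers of brain tissue were well above background in Cy5 on all arrays, and those of dividing cells were so in Cy3.

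Each of 5 alpha-1 genes had a probe at least 2-fold higher in hemibrain than in the reference on all 10 arrays. These were Cacna1a, Cacna1c, Cacna1d, Cacna1g and Cacna1h. Of Cacna1s, the skeletal muscle L-type subunit, 1 probe was lower. A probe was called higher when it was well above background in Cy5 on all 10 arrays and its log2 ratio of Cy5 to Cy3 was at least 1 on all 10, and lower when the same held for Cy3 with a ratio of at most -1. By this rule 7 of the 19 probes were called higher, beside 10.5% of all probes on the array. The lower call was made for 1 of the 19, beside 13.3% of all probes. Cacna1d, Cacna1g, Cacna1h and Cacna1s also had probes that were not called. The median log2 ratio was 1.96 over the alpha-1 probes and 0.04 over all probes. The call is a rule of size on single arrays, with no test behind it. Under 2 settings that started from the median signals, with an offset of 50 and loess, fewer probes were called higher. There were 5 after background subtraction, without Cacna1a A_52_P58404 and with none of Cacna1g. The Cacna1a probe then had a median of 1.40 and reached 1 on 8 arrays. Cacna1g A_52_P611610 had a median of 1.70 and reached 1 on 9 arrays. A_51_P466910, with values on 8 arrays, had a median of 3.12 and reached 1 on all 8. After normexp correction there were 0, and C10-413 gave ratios near 0 also for probes bright in Cy5 (0.25 for Cacna1h A_51_P280384).

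**Figure D1:**
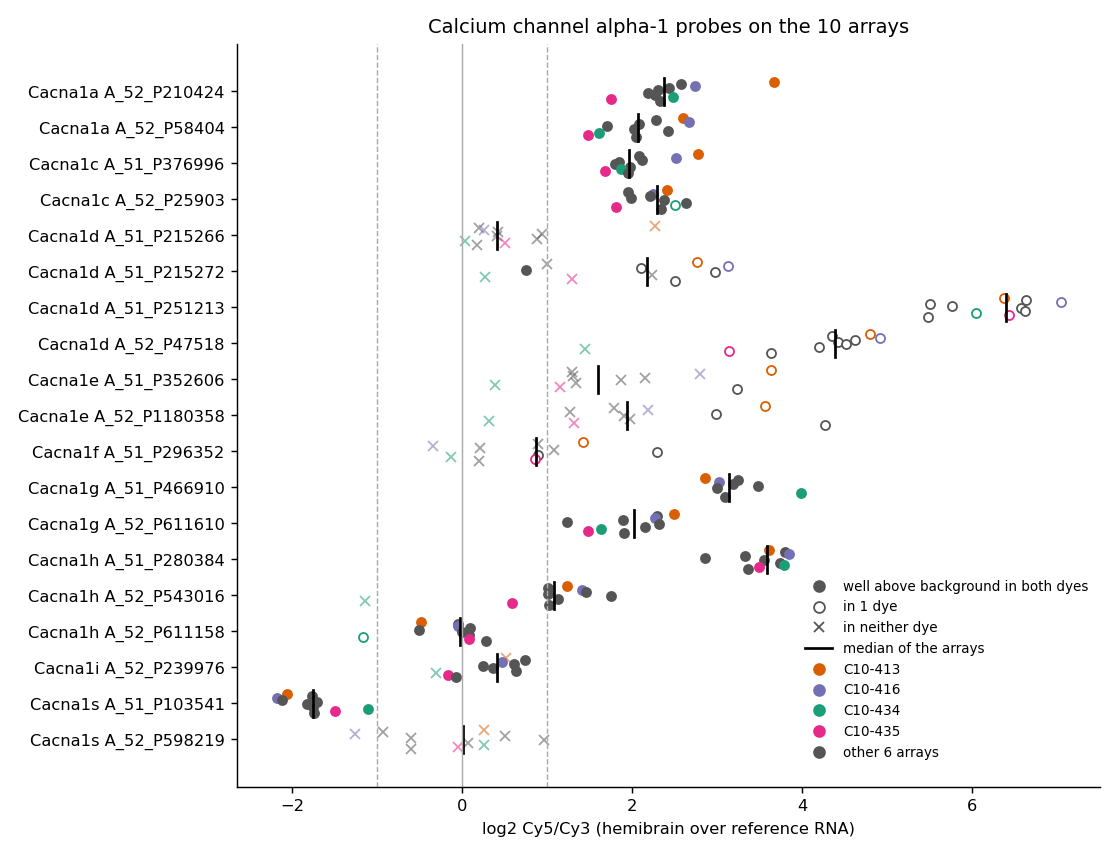
Log2 ratio of Cy5 (hemibrain) to Cy3 (reference) for each of the 19 alpha-1 probes, 1 point per array, with the median as a black bar and dashed lines at -1 and 1. Filled points were well above background in both dyes, open points in 1 dye and crosses in neither. Cacna1d A_51_P251213 lies farthest to the right, with all arrays between 5.48 and 7.04, and Cacna1s A_51_P103541 lies farthest to the left, between -2.18 and -1.11.

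Among the L-type genes, Cacna1d, which encodes a subunit that opens at relatively negative voltages in neurons and endocrine cells, gave the highest median ratio of the family. Its probe A_51_P251213 had a Cy5 signal of 936 to 2123, with a median of 1384, and was well above background on all 10 arrays. In Cy3 it was not well above background on any array, at 10.8 to 39.3. The log2 ratio was 5.48 at its lowest (C10-437), 6.40 at the median and 7.04 at its highest (C10-416). Since the reference gave no usable level, the fold was set against a stand-in. This was the dimmest signal that was well above background in Cy3 on each array, or the probe's own Cy3 signal where higher. Against it, hemibrain was 35.5-fold higher at the median array and 14.2-fold higher on the array with the smallest value. The stand-in is not a strict limit. On C10-423 the Cy3 signal of this probe was 39.3 and lacked the flag, though the dimmest signal with the flag was 37.3. These folds are therefore approximate bounds.

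The other 3 probes of Cacna1d, which carry a different RefSeq record of the gene, did not reach the call. A_52_P47518 had a Cy5 signal of 57.7 to 666 and was not well above background in Cy3 on any array. Its log2 ratios of 1.45, 4.39 and 4.91 for the lowest, median and highest array therefore have no usable reference level. Against the same stand-in, hemibrain was 6.37-fold higher at the median array, again an approximate bound. Its lowest value came from C10-434, where it was not well above background in Cy5 either. The remaining 9 arrays lay between 3.14 and 4.91, and without C10-434 the probe met the rule. The third probe, A_51_P215272, was well above background in Cy5 on 6 arrays and ranged from 0.27 to 3.12 around a median of 2.17. The fourth, A_51_P215266, was not well above background in either dye on any array, and its median of 0.42 has no usable level on either side.

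RefSeq lists 2 transcription starts for Cacna1d in the promoter table used here (build GRCm38.p6), and they differ widely in base composition. Both are printed because they belong to the gene with the highest median ratio from the processed signals. They stand beside that of Cacna1s, the gene with the lowest. Each run covers 250 bases before the start and 50 after it, on the strand of the gene, with every CpG (the letters CG, which read the same on both strands) in capitals. The first lies at chr14:30353437-30353736 on the minus strand, with 63 CpG and 87.3% G or C, the second at chr14:30491107-30491406 on the minus strand, with 4 CpG, and that of Cacna1s at chr1:136052561-136052860 on the plus strand, with 9 CpG.
Cacna1d, CpG-rich start: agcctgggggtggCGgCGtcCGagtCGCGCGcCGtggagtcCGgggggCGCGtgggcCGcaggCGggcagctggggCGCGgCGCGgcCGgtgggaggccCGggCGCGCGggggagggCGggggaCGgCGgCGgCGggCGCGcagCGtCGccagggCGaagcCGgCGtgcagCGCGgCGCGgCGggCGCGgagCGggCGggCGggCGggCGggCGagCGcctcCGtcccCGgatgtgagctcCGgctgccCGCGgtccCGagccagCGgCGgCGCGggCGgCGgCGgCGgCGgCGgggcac
Cacna1d, CpG-poor start: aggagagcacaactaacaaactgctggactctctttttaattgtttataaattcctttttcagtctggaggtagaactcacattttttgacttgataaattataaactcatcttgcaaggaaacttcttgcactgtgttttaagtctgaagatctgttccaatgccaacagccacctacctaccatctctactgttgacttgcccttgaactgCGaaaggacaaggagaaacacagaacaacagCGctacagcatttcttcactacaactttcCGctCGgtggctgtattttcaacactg
Cacna1s: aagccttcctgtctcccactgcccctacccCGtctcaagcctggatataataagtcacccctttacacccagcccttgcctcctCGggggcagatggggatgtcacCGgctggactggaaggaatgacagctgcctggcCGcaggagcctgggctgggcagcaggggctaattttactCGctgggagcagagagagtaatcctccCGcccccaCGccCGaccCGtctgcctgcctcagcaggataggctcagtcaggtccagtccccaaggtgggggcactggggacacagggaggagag

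Over the 32851 promoters of the table, 94.6% held at least 1 CpG and the median was 7, and 99.97% held fewer than the CpG-rich start of Cacna1d. Cacna1c also has a start of this kind, with 57 CpG at chr6:119108446-119108745, beside 2 others with 3 and 7. Cacna1b had 35 CpG, Cacna1i 23, Cacna1e 11 and Cacna1f 5, whereas the table held no promoter of Cacna1a, Cacna1g or Cacna1h. The arrays do not tell which start the RNA came from.

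Cacna1c, the L-type pore of heart, smooth muscle and neurons, was called higher by both of its probes. A_51_P376996 had a Cy5 signal of 839 to 2129 against 230 to 463 in Cy3, with log2 ratios of 1.69, 1.96 and 2.78 for the lowest, median and highest array. A_52_P25903 gave 1.81, 2.30 and 2.63. For both, C10-435 was the lowest array, and the difference between the probes within an array was small, with a median of -0.14 and a range of -0.66 to 0.37. The median ratios stand for 3.89-fold and 4.91-fold more signal in hemibrain.

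Cacna1f, the L-type channel of photoreceptor synapses, had 1 probe, with log2 ratios from -0.34 (C10-416) through a median of 0.87 to 2.29 (C10-424). It was well above background in Cy5 on 4 arrays and in Cy3 on none, hence most arrays gave no usable level in either dye. Of the 5 photoreceptor marker genes none was called higher or lower, and Crx, a transcription factor of photoreceptors, was not well above background on any array in either dye.

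Cacna1s, which couples the action potential to calcium release in skeletal muscle, was the only member with a lower call. Its probe A_51_P103541 was bright in both dyes, at 900 to 1428 in Cy5 and 2034 to 5170 in Cy3. The log2 ratio was -2.18 at its lowest (C10-416), -1.76 at the median and -1.11 at its highest (C10-434), which is 3.38-fold less signal in hemibrain at the median. With a further loess normalization within each array the median was -1.54 and C10-434 moved to -0.83, so that 9 arrays met the limit and the call was lost. The second probe, A_52_P598219, was not well above background on any array in either dye and ranged from -1.26 to 0.97. Of the 6 skeletal muscle marker genes 2 were called higher and 2 lower, and Ryr1, the calcium release channel that Cacna1s acts on in muscle, was higher, with a median of 3.58.

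**Figure D2:**
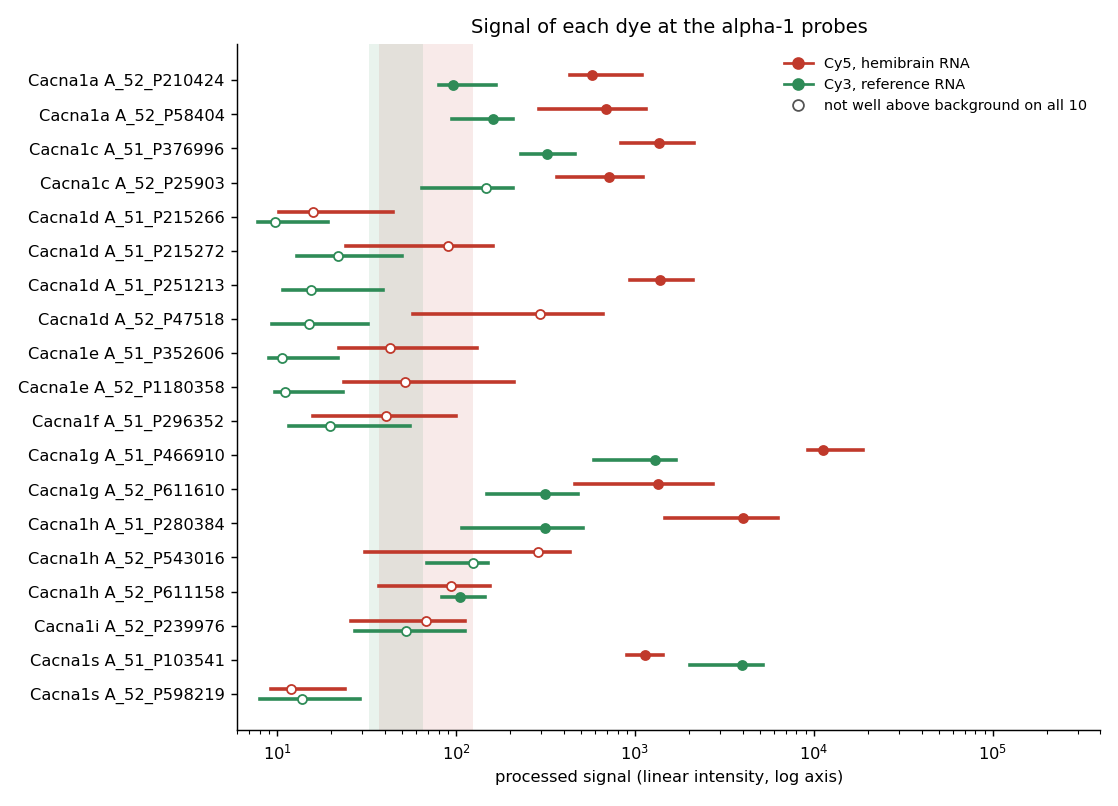
Processed signal of each alpha-1 probe in Cy5 (red, hemibrain) and Cy3 (green, reference) on a log axis, drawn from the lowest to the highest array with the median as a point (8 arrays for Cacna1g A_51_P466910). Open points were not well above background on all 10 arrays, and the shaded bands span, over the arrays, the dimmest signal that was well above background in each dye. Cacna1d A_51_P251213 reached 936 to 2123 in Cy5 while its Cy3 signal of 10.8 to 39.3 was not well above background on any array.

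Of the channels that serve transmitter release, Cacna1a, the pore of the P/Q-type channel and the main calcium source at many central synapses, was called higher by both probes. A_52_P58404 had a Cy5 signal of 291 to 1149 against 95.4 to 208 in Cy3, and its log2 ratios were 1.49, 2.07 and 2.67. A_52_P210424 gave 1.75, 2.38 and 3.66. The highest value of the latter, from C10-413, stood apart from the other 9 arrays, which lay between 1.75 and 2.73. For both probes C10-435 was the lowest array. At the medians hemibrain gave 4.19-fold and 5.20-fold more signal. After subtraction with loess A_52_P58404 lost its call, with its lowest array at 0.63.

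Cacna1e, the pore of the R-type channel, stayed near background. A_52_P1180358 was well above background in Cy5 on 3 arrays and A_51_P352606 on 2, and neither was so in Cy3 on any array. Their log2 ratios ran from 0.32 to 4.27 around a median of 1.94, and from 0.39 to 3.63 around 1.60. With no usable reference level these ratios do not give a size. C10-413 and C10-437, the arrays on which both probes were well above background, also gave the highest ratios of both, and C10-434 gave the lowest. The range of 3.95 for the first probe was the widest of the 19.

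The T-type genes differed among themselves. Cacna1g, the T-type channel of thalamic relay neurons and Purkinje cells, was measured by A_51_P466910 at 9330 to 18844 in Cy5 beside 588 to 1695 in Cy3, over the 8 arrays with a usable spot. Its log2 ratio was 2.85, 3.14 and 3.99 for the lowest, median and highest of these. On C10-425 and C10-435 its spot was marked as an outlier by the scanner software and was left out, so the rule, which asks for all 10 arrays, was not met; with these spots kept, all 10 arrays exceeded 1, the median was 3.10 and the probe was called. The second probe, A_52_P611610, was called higher with 1.24, 2.02 and 2.50. The first exceeded the second in ratio on 8 of 8 arrays, by a median of 1.07.

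Cacna1h, a T-type channel of many neurons and of sensory and endocrine cells, gave 3 different answers from 3 probes of a single RefSeq record. A_51_P280384 was called higher, with a Cy5 signal of 1482 to 6285, a Cy3 signal of 107 to 515 and log2 ratios of 2.85 (C10-423), 3.58 and 3.85 (C10-416). A_52_P543016 had a median of 1.08, with C10-434 at -1.14 and the other 9 arrays between 0.59 and 1.75. A_52_P611158 had a median of -0.02, with C10-434 at -1.17 and the others between -0.50 and 0.29. On C10-434 neither of these 2 probes was well above background in Cy5. The order of the 3 probes was the same on 10 of 10 arrays, and the first exceeded the third by a median of 3.60 in log2 ratio, the smallest such difference being 3.07. Where each probe lies on the transcript is not given in the sources used here.

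Cacna1i, the T-type channel with slow kinetics in thalamic reticular neurons, had 1 probe, which was not called. It was well above background in both dyes on 8 arrays, and over all 10 its signal was 25.8 to 113 in Cy5 and 27.3 to 113 in Cy3. The log2 ratio was -0.31 (C10-434), 0.42 and 0.74 (C10-415), and 7 of 10 arrays lay above 0. Of the 6 thalamic marker genes 2 were called higher and 1 lower.

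Each gene was next represented by its brightest probe, and the genes with a usable level in both dyes on at least 8 arrays were placed in order of the median log2 ratio. The order was Cacna1h (3.58), Cacna1g (3.14), Cacna1a (2.07), Cacna1c (1.96), Cacna1i (0.42) and Cacna1s (-1.76). These are ratios to the reference and not levels, so they do not rank the channels within the brain. Cacna1h was above Cacna1g on 6 of 8 arrays and Cacna1a above Cacna1c on 5 of 10, with ranges that overlapped in both pairs. The other neighbours did not overlap: the lowest array of Cacna1g (2.85) lay above the highest of Cacna1a (2.67), that of Cacna1c (1.69) above the highest of Cacna1i (0.74), and that of Cacna1i (-0.31) above the highest of Cacna1s (-1.11). The order depends on the choice of probe. Cacna1g A_52_P611610 ran from 1.24 to 2.50 and Cacna1a A_52_P210424 from 1.75 to 3.66, which overlap. The other probes of Cacna1h had medians of 1.08 and -0.02, below the values of Cacna1g and Cacna1a. Cacna1d can be placed only by its approximate bound, 14.2- to 54.0-fold over the arrays, beside 7.23- to 14.4-fold for Cacna1h. These ranges overlapped at their edge. Within arrays the log2 ratio of Cacna1d was above that of Cacna1h on 10 of 10, though without a usable reference level for Cacna1d. Cacna1e and Cacna1f, which were not well above background in Cy3 on any array and in most arrays not in Cy5, were not placed.

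The range of log2 ratio over the arrays had a median of 1.57 among the alpha-1 probes and of 1.16 among all probes. C10-434, with the lowest share of probes well above background in Cy5, gave the lowest value for 8 of the 19 alpha-1 probes. All 8 were among the 10 probes that were not well above background in Cy5 on every array, where the median deviation of C10-434 from the probe median was -1.18. Among the other 9 probes it was the lowest array for 0, and its median deviation was 0.10. Without this array the median range was 1.26 for the alpha-1 probes and 1.03 for all. C10-413 and C10-416 gave the highest value for 5 probes each, and C10-435 the lowest for 4. Over the 9 alpha-1 probes that were well above background in Cy5 on all arrays the median range was 1.14, beside 0.865 for all such probes.

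The file headers place the arrays on 4 slides. The 2 slides with 4 arrays were compared as a technical batch, and those with 1 array each were left out. One slide held C10-415, C10-416, C10-417 and C10-423 and the other C10-424, C10-425, C10-434 and C10-435. With limma and Benjamini-Hochberg adjustment over 40299 probes, 30 probes (0.0744%) differed between these slides at an adjusted p under 0.05, and 0 of the 18 alpha-1 probes tested. At an unadjusted p under 0.05 these numbers were 4034 (10.0%) and 1. The latter was the probe of Cacna1s that was not above background on any array, A_52_P598219, which was 0.88 higher on the second slide with an adjusted p of 0.491, the smallest of the family. The largest difference was that of Cacna1d A_52_P47518, with -1.25 and a 95% interval of -2.57 to 0.07, which includes C10-434. For the called probe of Cacna1d, A_51_P251213, the difference was 0.18, with an interval of -0.58 to 0.95. Over the 18 probes the narrowest 95% interval reached 0.41 to either side of the difference. The intervals are not adjusted over all probes, so 0.41 is not the limit of detection. On simulated data for this comparison, 45% of probes shifted by 1.5 were recovered. Slide, labeling and animal cannot be told apart in this comparison.

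**Figure D3:**
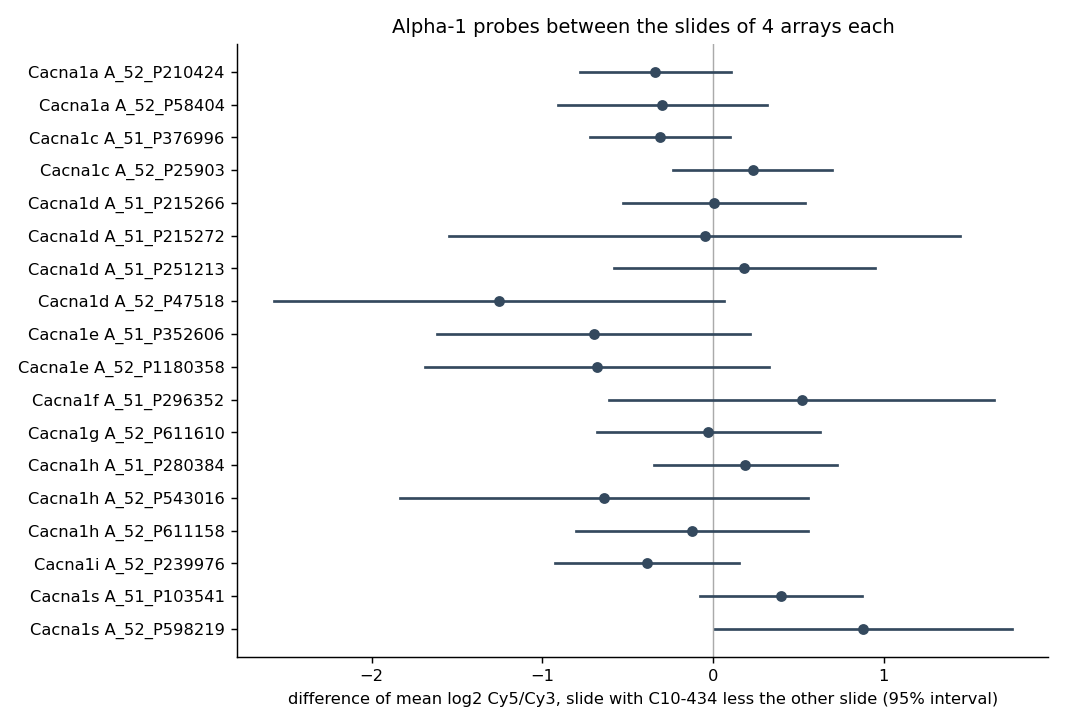
Difference in mean log2 Cy5/Cy3 between the slides of 4 arrays each, the slide with C10-434 less the slide with C10-415, for the 18 alpha-1 probes tested, with the 95% interval from limma. The interval of every probe but Cacna1s A_52_P598219 (0.88) includes 0, and no difference passed the adjusted threshold.

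The pore does not work alone, and the genes of its partners were read from the same arrays, each by its brightest probe. Of 38 genes in 6 lists 35 had a probe, and 17 of these were called higher and 3 lower, beside 13.8% and 15.1% of all genes. Beta subunits, which bring the pore to the membrane, were called higher for 2 of 4 genes. Cacnb4 had the highest ratio, at 4.06, 4.43 and 5.56 for the lowest, median and highest array, and Cacnb1, the form known from skeletal muscle, the lowest, at -0.43, 0.07 and 0.59. Alpha2delta subunits, extracellular proteins that raise channel number at the surface, were split: 2 of 3 were higher and 1 was lower. Cacna2d3 had a median of 3.82, and Cacna2d2 a median of -1.74, with all arrays between -2.01 and -1.46.

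Gamma subunits and the related AMPA receptor regulators (TARPs) were higher for 3 of 7 genes and lower for 1. Cacng5 gave the highest median, 4.76, and Cacng1, the gamma subunit of the skeletal muscle channel, the lowest, -1.78, with all arrays between -3.04 and -1.01. Cacng1 was well above background in Cy5 on 4 arrays and in Cy3 on all 10, and its call was lost when each array was centred on its median (highest array -0.96), with a further loess (-0.90) and with subtraction (-0.17).

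**Figure D4:**
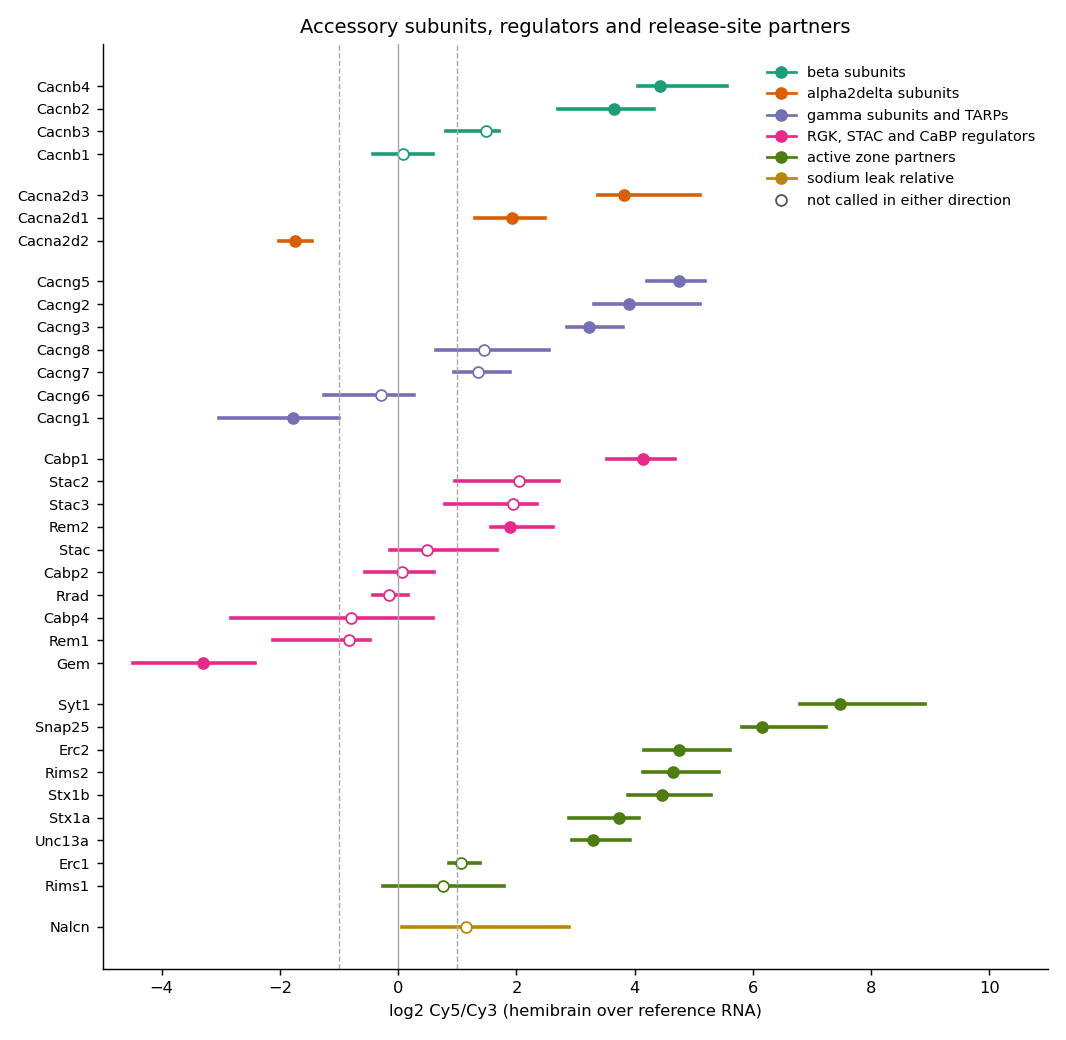
Log2 ratio of Cy5 to Cy3 for 34 genes of accessory subunits, regulators and release-site partners, each by its brightest probe, from the lowest to the highest array with the median as a point. Filled points were called at least 2-fold higher or lower on all 10 arrays, and dashed lines mark -1 and 1. Among the genes drawn, release-site genes reach the highest medians, up to 7.48 for Syt1, and Gem the lowest, -3.30.

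Regulators that bind the channel from the cytoplasm (RGK GTPases, STAC adaptors and calcium-binding CaBP proteins) were mostly not called, with 2 higher and 1 lower of 10 genes. Cabp1, a calmodulin-like protein of neurons, had the highest median, 4.14, and Gem, a GTPase that inhibits calcium channels, the lowest, -3.30, with all arrays between -4.48 and -2.43. At the release site, proteins that hold the channel near the vesicles or fuse them were higher for 8 of 10 genes. Syt1, the calcium sensor of synaptic vesicles, had a median of 7.48, with arrays from 6.79 to 8.90, and Rims1, the scaffold that links the channel to vesicles, had the lowest, 0.75, with arrays from -0.26 to 1.80. Nalcn, a sodium leak channel related to the alpha-1 subunits and the only gene of its list, was well above background in Cy5 on 1 array, at a median of 1.14.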

How the data were processed

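Feature Extraction 10.10.1.1 read the scans, and the authors deposited its output: intensities of each dye on a linear scale, processed signals that the software had corrected for background and normalized between dyes (linear and lowess), the log10 ratio of Cy5 to Cy3, and flags per spot. The authors also deposited a table of log2 values, 1 per probe and array, which correlated with the deposited log ratio at 0.997 or more. From the processed signals log2 Cy5/Cy3 was computed without further normalization, with control spots and outlier-marked spots left out and repeated spots averaged on the log2 scale. A probe counted as well above background where at least 0.5 of its spots carried the flag. Probes were named by accession through a RefSeq table (assembly GRCm38.p6, names only), which matched 27198 of 41174 probes (66.1%).

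The alpha-1 genes and all gene lists were chosen with earlier results of these data known. Named genes are all members with every probe, and of each partner list the genes of highest and lowest median ratio among those well above background in at least 1 dye on all 10 arrays. Nalcn, the only gene of its list, falls outside this rule and was chosen after its values were seen. Of the release-site list 1 gene is counted but not reported here, and Syt1 was chosen in its place after its values were seen. Marker genes are named only where absent or set beside a member. Promoters are given as printed in the RefSeq table. All arrays are single arrays of no settled group, and nothing in the sources makes them replicates of a diet. Precision is limited by how many arrays there are and by their signal over background. Slides were compared with limma 3.58.1 (R 4.3.3) on log2 ratios, 4 arrays against 4. On simulated data for this comparison, with 200 of 40299 probes shifted by 1.5, 45% were recovered and 5 unchanged probes were called. Other values were computed with Python 3.11.15, numpy 2.4.6 and pandas 2.3.3. Alternatives tried were loess (span 0.3), centring on the median, the deposited log ratio and table, normexp or subtraction (floor 0.5) on median signals, each with an offset of 50 and loess, outlier-marked spots kept, other background flags, a 1.5-fold limit, any ratio of 1 sign, all probes of a gene, the mean of the slide medians, a block for position on the slide, and each array left out.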

Additional observations from a re-analysis of the deposited data

Results flagged for a closer look

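In 24 measures, which were the 19 alpha-1 probes and the medians of the 5 partner lists with more than 1 gene, the highest or lowest array was set against the gap that Dixon's limit for 10 arrays allows. It was passed in 5, where about 1.2 would be passed by chance, since this limit marks about 1 in 20. On C10-413, Cacna1a A_52_P210424 stood at 3.66, above the other arrays at 1.75 to 2.73, and Cacna1d A_51_P215266 at 2.27, above the others at 0.04 to 0.94, though the latter was not well above background on any array. On C10-434, Cacna1d A_52_P47518 stood at 1.45, below the others at 3.14 to 4.91, and Cacna1h A_52_P543016 at -1.14, below the others at 0.59 to 1.75. Neither of these was well above background in Cy5 on that array, whose median background-subtracted Cy5 signal of 28.5 was the lowest of the 10. On C10-423, Cacna1h A_51_P280384 stood at 2.85, below the others at 3.32 to 3.85. The part of the array's signal in these values was not tested.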

How the results depend on the processing

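With a further loess, the lower call of Cacna1s was lost (0 lower calls). With normexp and loess, the median log2 ratio of the alpha-1 probes was 0.41, with 0 higher and 0 lower calls, 3 higher and 0 lower calls among partner genes, and 0 probes differing between slides. With subtraction and loess, the median was 0.50, the lower calls were 0 and 1 probe differed between slides. Both corrections add an offset of 50, which draws the ratios of dim probes towards 0, and Cacna1d A_51_P251213 had medians of 2.88 and 3.03 under them. With normexp, C10-413 gave 0.08 for this probe and 0.25 for the bright Cacna1h A_51_P280384. Between slides, 68 probes differed when only probes well above background in Cy5 were tested and 0 with a block for position. Leaving out each array in turn gave 0 to 18 such probes (18 without C10-423, 2 without C10-415 and 0 without any 1 of the other arrays), 7 to 8 higher calls, a median of 1.91 to 1.98 and a median range of 1.18 to 1.57. No called value changed direction in the settings run. Among uncalled medians, that of Cacna1h A_52_P611158 went from -0.02 to 0.17 with loess. That of Cacna1s A_52_P598219, which was not well above background, went from 0.01 to -0.02 with subtraction. Over the counts and summary medians, 128 values stayed within the spread or within 1.5 times and 20 did not, and over the medians of single probes and other single values 339 did and 32 did not. No paired analysis was possible because the labels put no array in a group. Signal over background limits what can be said of Cacna1e, Cacna1f, Cacna1i and the dimmer probes of Cacna1d and Cacna1s.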
